A study of Mus musculus with 28 samples.

Results

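Embryoid bodies grown from Eed null cells of the mouse embryonic stem cell line CJ7 were set against those of its wild-type cells on day 5 after withdrawal of LIF, the cytokine that keeps mouse stem cells undifferentiated. The comparison was given by the sample labels and took in 4 of the 28 RNA-seq libraries of the series, 2 labelled wild type and 2 labelled Eed null, and it was made across the 37583 genes of the embryoid body table. Before differentiation the cells had grown on feeder fibroblasts, on gelatin, in serum medium with LIF and the inhibitors PD0325901 and CHIR99021, and the protocol has a replating step to remove feeders from the stem cells. Feeder markers were nonetheless high in the stem cell libraries and low in the embryoid bodies (values below). Genotype was the labelled difference between the groups. CJ7 embryoid bodies of 2 Elongin A edited lines, K754M and K754R (2 libraries each), carried no Eed null label and served as further comparison groups, and 2 libraries of wild-type embryoid bodies from a second stem cell line, CCE28 (EloA+/+, CCE below), gave reference levels. The sources used here do not say how the Eed null line was made, whether it is 1 clone, or whether the 2 libraries of a group came from separate cultures. Each p-value below therefore measures the spread between libraries, which may be technical. An embryoid body is a mixture of cell types, so fewer cells of a type and less RNA per cell cannot be told apart in these bulk libraries.

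Eed is the subunit of Polycomb repressive complex 2 (PRC2) that binds trimethylated lysine 27 of histone H3 (H3K27me3) and stimulates the catalytic subunit, Ezh1 or Ezh2, which writes that mark. PRC2 acts with PRC1, whose Cbx subunits read H3K27me3, mostly at CpG-rich promoters of developmental regulators such as the Hox genes. Without PRC2, mouse stem cells can be kept in culture but are known to differentiate poorly. In a normal embryoid body, aggregated stem cells leave naive pluripotency, pass through an epiblast-like state, and form visceral endoderm on the outside and primitive streak-like mesoderm and definitive endoderm inside. Levels are given as RPKM, reads scaled to gene length and to the mapped reads of the library.

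The step that 1 read makes in the low RPKM values put library depth, estimated with reference exon lengths, at 31.4 and 32.0 megareads in the wild-type libraries, 39.9 and 34.8 megareads in the Eed null libraries and 23.6 to 32.5 megareads in the other 6. Replicates correlated across genes at r = 0.981 to 0.988 within the 5 groups. The Eed null libraries held more genes at 0.1 RPKM or above, 20324 and 20369, than the wild-type libraries with 18669 and 19366 or the others with 18369 to 19072. Small RNA rows took 10.8% and 11.9% of the summed RPKM in the Eed null libraries and 14.9% to 21.3% in the other 8. Chromosome 8 stood apart as a whole: the median log2 difference of its 939 tested genes was -0.27 against wild type, -0.32 against K754M and -0.22 against K754R, and -0.23 in the stem cells of the same lines. On chromosome 11 the median over 1592 genes was -0.21 against wild type and -0.24 in stem cells, but 0.12 against K754M and 0.10 against K754R. Each library was also set against the mean of the 8 CJ7 libraries, relative to genes off chromosomes 8, 11, X and Y. On that scale chromosome 11 stood at 0.28 and 0.29 in wild type. The Eed null, K754M, K754R and CCE libraries lay between -0.12 and 0.02, so wild type stood apart there. On chromosome 14 the median was -0.28 against K754R alone. Against wild type, 9.80% of the chromosome 8 genes were called higher and 28.5% lower, and on chromosome 11 12.5% and 21.5%. The part of these chromosome-wide shifts in the results for single genes on those chromosomes was not tested.

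**Figure D1:**
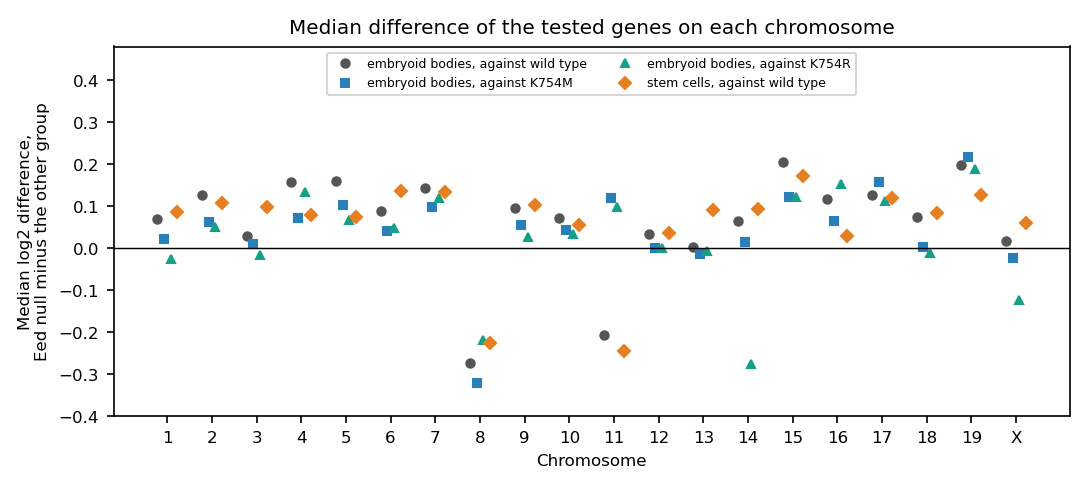
Median log2 difference (log2(RPKM + 0.5), vertical axis) of the tested genes on each chromosome (horizontal axis), Eed null minus each comparison group in embryoid bodies and Eed null minus wild type in stem cells. Chromosome 8 lies below 0 in all 4 comparisons (-0.32 to -0.22), and chromosome 11 lies below 0 only against wild type (-0.21 and -0.24).

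Eed itself measured 49.6 and 55.3 RPKM in the wild-type and 15.8 and 16.3 RPKM in the Eed null libraries, with 38.0 to 50.5 RPKM in the 4 K754M and K754R libraries. The Eed null libraries lay below all others, a log2 change of -1.68 ± 0.10 (SE) against wild type with an adjusted p of 7.37e-05 by limma, and the mean Eed null level was 0.306 times the wild-type mean. The labels do not say which part of the gene was altered, and the table gives a single value per gene. None of the other 5 core PRC2 genes tested (Ezh1, Ezh2, Suz12, Rbbp4, Rbbp7) was called. Of 6 tested accessory subunits, which steer PRC2 to chromatin, 5 rose: Phf19 (0.330 and 0.265 to 1.73 and 1.82 RPKM; log2 change 1.51 ± 0.18), the gene listed as E130012A19Rik (1.66 ± 0.26), Jarid2 (0.87 ± 0.26), Aebp2 (0.75 ± 0.14) and Mtf2 (0.60 ± 0.11), the Jarid2 call being lost without wild-type library 1 or Eed null library 2. Of 21 PRC1 genes 4 were called higher, 2 of them held, a share of 19% beside 19.2% of all genes tested, and none lower. Cbx7, the Cbx reader of pluripotent stem cells, had the largest change with 4.17 and 6.47 RPKM in wild type and 19 and 29.7 RPKM in Eed null (log2 change 2.09 ± 0.27). L3mbtl2 rose by 1.09 ± 0.16, the Bmi1 call was lost without wild-type library 2, and the Phc1 call without wild-type library 1, wild-type library 2 or Eed null library 2.

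Across the transcriptome, 19300 genes had at least 0.25 RPKM in at least 2 of the 8 CJ7 embryoid body libraries and were tested together by limma on log2(RPKM + 0.5). Against wild type 5867 genes (30.4%) had an adjusted p below 0.05, 3703 (19.2%) higher and 2164 (11.2%) lower in Eed null; the unadjusted p was below 0.05 for 8020. Against K754M 5241 genes (27.2%) were called and against K754R 6570 (34.0%); these comparisons share the Eed null libraries. The calls against wild type that were kept whichever of the 4 libraries was left out, with the same genes tested, numbered 2146 higher (11.1%) and 917 lower (4.75%), and are called held below. Both Eed null libraries lay above all 8 other embryoid body libraries for 4098 genes (21.2%) and below all 8 for 2481 (12.9%). These shares are the background against which the counts of gene lists are read. Of the tested genes 725 reached 0.25 RPKM only in Eed null libraries, and such a gene had to lie higher there, so its call is no independent finding. Such a gene can be counted as held, since the same genes were tested. The filter applied anew without either Eed null library drops it. The balance of directions depended on the scaling: 63.1% of calls were higher as deposited, 43.7% after each library was centred on its median, and 49.9% after quantile normalization, which moved the median log2 change of all tested genes from 0.05 to -0.12 and -0.06. Among genes lower in Eed null, the count without wild-type library 2 was 1290 of the same genes tested, and among genes higher it was 2394 without Eed null library 2 when the filter was applied anew, which drops genes that need both Eed null libraries to pass.

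**Figure D2:**
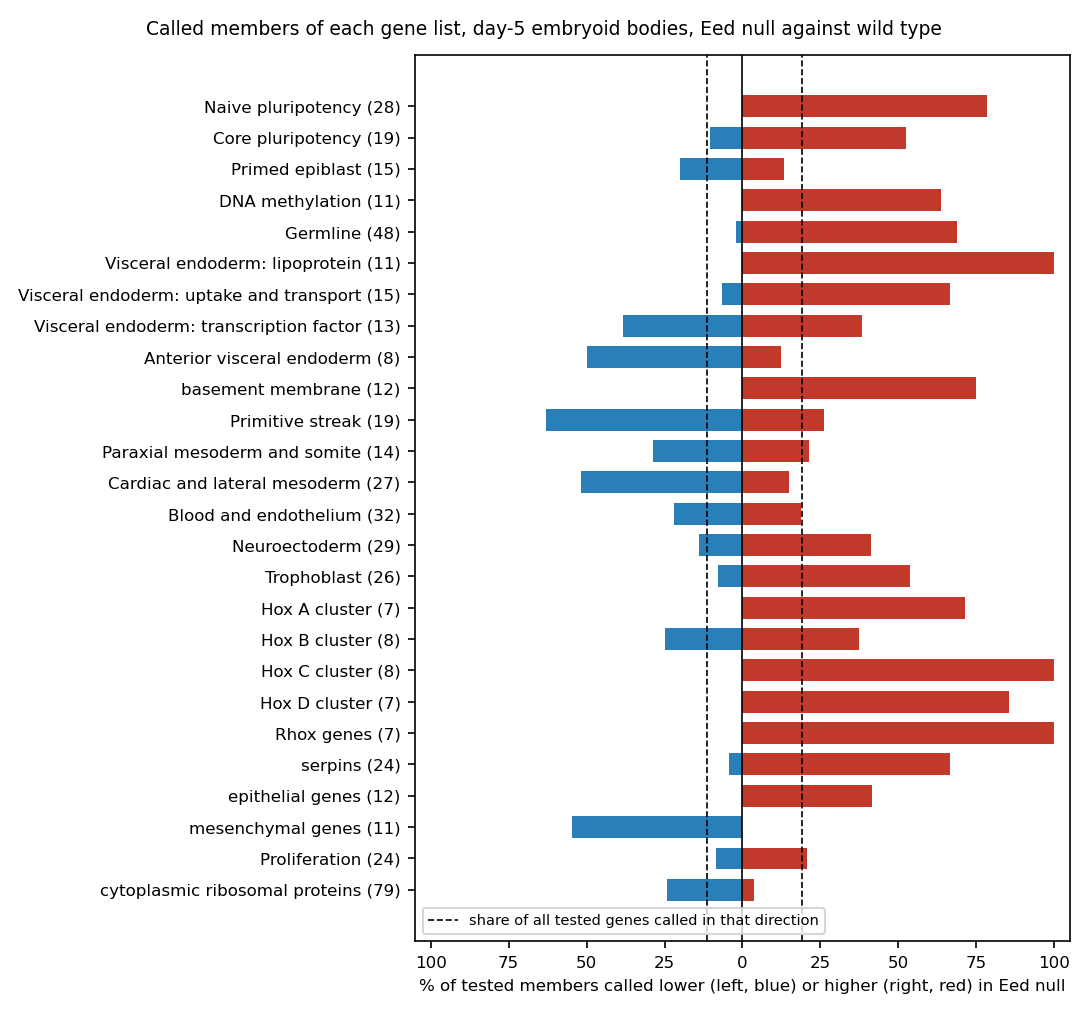
Percent of the tested members of each gene list (number tested in brackets) called higher (red, right) or lower (blue, left) in Eed null against wild-type embryoid bodies, with dashed lines at 19.2% and 11.2%, the shares of all tested genes. Naive pluripotency, germline, lipoprotein and Hox C genes extend far to the right, and primitive streak, cardiac and mesenchymal genes to the left.

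Naive pluripotency genes were higher in Eed null than in wild-type embryoid bodies. Of 28 tested members, 2 of which passed the filter only through the Eed null libraries, 22 were called higher, 20 of them held, and none lower, with a median log2 change of 2.55 against 0.05 for all tested genes; both Eed null libraries lay above all 8 others for 24. Among the 15 transcription factors 12 rose. Esrrb, an orphan nuclear receptor of the naive state, measured 0.252 and 0.407 RPKM in wild type and 12.9 and 26.9 RPKM in Eed null (log2 change 4.53 ± 0.33, adjusted p = 1.17e-04). Tfcp2l1, a factor downstream of LIF, went from 1.32 and 1.29 to 15.4 and 27.1 RPKM (3.54 ± 0.26), and the homeobox gene Nanog from 36.7 and 59.0 to 188 and 184 RPKM (1.99 ± 0.21). Esrrb was near 0 in wild type while Nanog was still present there, and in both genes the Eed null libraries lay above all 8 others. Klf2, Klf4, Nr5a2 and Prdm14 rose by 2.60, 1.65, 3.31 and 2.40 on the log2 scale. The B-Myb gene Mybl2 rose by 2.61. Tbx3, Klf5 and Bcl3 were not called (adjusted p 0.76, 0.067 and 0.19), the Stat3 call was lost without wild-type library 1 or Eed null library 2, and the Gbx2 call without either wild-type library.

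Of the 13 other markers of the naive state 10 were called higher. Dppa3 (Stella), a maternal factor that guards against DNA demethylation, measured 2.79 and 2.25 RPKM in wild type, 0.141 to 2.21 RPKM in the K754M and K754R libraries and 73.2 and 57.0 RPKM in Eed null (log2 change 4.44 ± 0.18 against wild type). Fgf4, the ligand through which naive cells drive their own differentiation, rose from 1.07 and 1.69 to 15.5 and 25.2 RPKM (3.45 ± 0.28), and Tcl1, a coactivator of Akt, from 0.0114 and 0.0112 to 7.52 and 6.45 RPKM (3.87 ± 0.18). The secreted phosphoprotein Spp1, the junction protein Jam2 and alkaline phosphatase (Alpl) rose by 3.63, 3.23 and 2.49. Lifr, Il6st and Socs3, the LIF receptor chains and the feedback inhibitor of LIF signalling, were not called.

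Pluripotency genes shared by naive and primed cells were split. Of 19 tested members 10 were called higher and 2 lower; without Eed null library 2 the lower count was 4, and without any 1 of the other 3 libraries it was 1. Pou5f1 (Oct4) measured 47.9 and 50.2 RPKM in wild type and 179 and 169 RPKM in Eed null (1.82 ± 0.19), and its partner Sox2 4.07 and 2.98 RPKM in wild type and 28.1 and 49.6 RPKM in Eed null (3.25 ± 0.27). Dppa5a, an RNA-binding protein, reached 1619 and 1129.6 RPKM against 54.6 and 77.4 RPKM (4.37 ± 0.34). Dppa4 rose by 3.46, Gdf3 by 3.74, Dppa2 by 2.84, Foxd3 by 2.68 and Utf1 by 2.60. Sall4, Lin28a, Trim71 and Cdh1 were expressed in both groups and were not called, Lin28a for example with 109.7 and 102 RPKM in wild type and 78.9 and 108 RPKM in Eed null. Lin28b, a brake on let-7 maturation, fell by 0.81 on the log2 scale. Sall1 was also called lower, and that call was lost without wild-type library 1, wild-type library 2 or Eed null library 1. K754R embryoid bodies lay below wild type in Pou5f1 (5.61 and 3.44 RPKM) and Nanog (6.39 and 5.39 RPKM), so the gap between Eed null and K754R was wider, 5.15 and 4.87 on the log2 scale.

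Genes of the primed epiblast were called near the background rate, 2 of 15 higher and 3 lower, beside 19.2% and 11.2% of all tested genes. Otx2 (10.9 and 14.8 RPKM in wild type and 8.98 and 13.5 RPKM in Eed null) and Dnmt3b (83.8 and 88.8 RPKM in wild type and 48.8 and 90.7 RPKM in Eed null) overlapped between the groups. Fgf5, a classic marker of the formative and primed epiblast, was lower, 9.95 and 5.66 against 2.74 and 4.75 RPKM, a call lost without wild-type library 1 or Eed null library 1. The Fgf-responsive factor Etv5 rose by 2.07 and the de novo methyltransferase Dnmt3a by 1.36. Of 11 genes of DNA methylation 7 rose and none fell, 4 without wild-type library 2 or without Eed null library 2. Zfp57, which protects methylation at imprints, measured 11.5 and 11 RPKM in wild type and 37.4 and 52.6 RPKM in Eed null (1.93 ± 0.18), and the glycosylase Tdg, which removes oxidized methylcytosine, 3.64 and 3.46 RPKM in wild type and 7.19 and 9.84 RPKM in Eed null (1.14 ± 0.18). The maintenance methyltransferase Dnmt1 was not called.

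**Figure D3:**
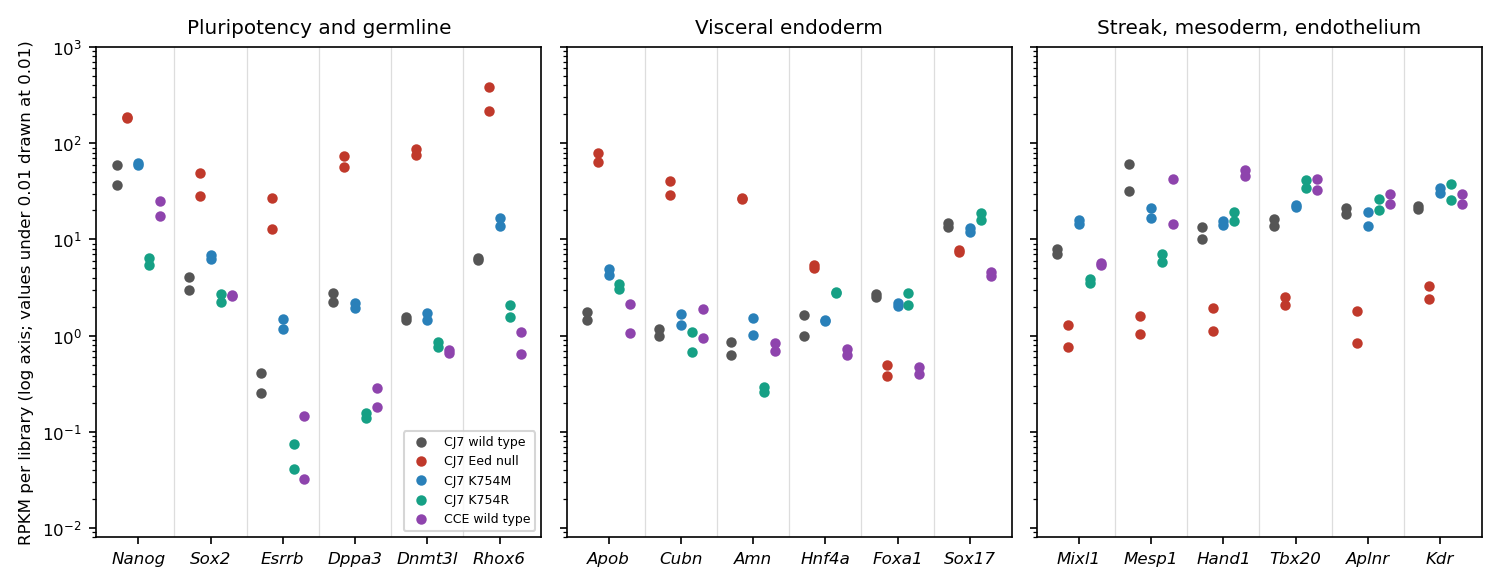
RPKM of 18 genes in each of the 10 embryoid body libraries (log axis, values under 0.01 drawn at 0.01), 2 points per group, for pluripotency and germline, visceral endoderm, and streak, mesoderm and endothelium. The Eed null points (red) lie above all others in every gene of the first panel and below all others in every gene of the third, while Foxa1 and Sox17 lie low in the second and Apob, Cubn, Amn and Hnf4a lie high.

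Germline genes, many of which are silent in somatic cells, were also higher in Eed null. Of 54 listed genes 48 were tested, 33 were called higher and 1 lower. Of the tested genes 13 passed the filter only through the Eed null libraries. All 13 are among the 33 and could be called in that direction alone. Among the 11 genes of primordial germ cell specification 9 rose. Sohlh2, a germ cell helix-loop-helix factor, went from 0.0539 and 0.0926 to 14.9 and 12.9 RPKM (4.65 ± 0.18), Tfap2c from 2.27 and 4.18 to 15.5 and 21.5 RPKM (2.38 ± 0.28), and the RNA-binding repressor Nanos3 from 1.39 and 0.898 to 9.96 and 6.49 RPKM (2.39 ± 0.24). Ddx4 (Vasa), Dazl and Dnd1 rose by 1.71, 2.12 and 0.94. Dazl passed the filter only through the Eed null libraries and could be called in that direction alone. Prdm1 (Blimp1), the repressor that starts the germ cell program in the epiblast, was not called, with 4.27 and 3.14 RPKM in wild type and 2.08 and 3.20 RPKM in Eed null.

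Genes that silence transposons and genes of meiosis made up the rest of the list with other gametic genes. Of 11 transposon silencing genes 7 rose, led by Tex19.1 (2.54 and 2.03 RPKM in wild type, 103 and 75.3 RPKM in Eed null, log2 change 5.00 ± 0.20), Mael (3.81 ± 0.25), Tdrd12 (3.43 ± 0.25) and the Piwi protein gene Piwil2 (3.33 ± 0.21). Of the 7, 3 passed the filter only through the Eed null libraries, Piwil2 among them, and could be called in that direction alone. Of 15 meiosis genes 10 rose, and 3 of the 10, Hormad1 among them, likewise passed the filter only through the Eed null libraries. The synaptonemal complex gene Syce1 measured 0.460 and 0.365 RPKM in wild type and 8.20 and 7.23 RPKM in Eed null (3.17 ± 0.23), Tex11 0.0971 and 0.165 RPKM in wild type and 3.29 and 4.73 RPKM in Eed null (2.82 ± 0.20), and the axis protein gene Hormad1 0.126 and 0.248 RPKM in wild type and 2.33 and 3.05 RPKM in Eed null (2.21 ± 0.22). The levels of these meiosis genes stayed under 10 RPKM in Eed null. Spo11, which makes the breaks that start recombination, was not called (0.903 and 0.454 RPKM in wild type and 0.381 and 0.502 RPKM in Eed null).

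The Rhox homeobox genes, an X-linked cluster active in placenta and gonads, were called higher in 7 of 7 tested members. However, 23 rows were below the filter, and 4 of the 7 passed it only through the Eed null libraries. Rhox6 measured 6.18 and 6.38 RPKM in wild type, 16.6 and 13.9 RPKM in K754M, 2.07 and 1.55 RPKM in K754R and 388 and 215 RPKM in Eed null (5.42 ± 0.27). Rhox9 went from 1.73 and 1.50 to 101 and 63.7 RPKM (5.25 ± 0.23), and Rhox12, listed at 0 in both wild-type libraries, reached 2.72 and 1.90 RPKM. In stem cells Rhox6 and Rhox9 were lower than in the embryoid bodies of their own genotype, with means of 0.890 and 0.663 RPKM in wild type and 72.6 and 21.6 RPKM in Eed null, in a table that was normalized separately. Genes of the 2-cell stage stayed near the detection limit: of 16 listed, 5 were tested and 4 called higher, with Zscan4c at 0.406 and 0.465 RPKM and Zscan4d at 0.478 and 0.418 RPKM in Eed null; both calls were lost without wild-type library 2 or without Eed null library 1, the Zscan4c call also without Eed null library 2 and the Zscan4d call also without wild-type library 1. Copies of the Zscan4 family share sequence, so their values are uncertain.

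Visceral endoderm genes divided by function, and the list as a whole had 33 of 48 tested members called higher and 7 lower; 4 of the 48 passed the filter only through the Eed null libraries and 5 further members were below it. All 11 tested lipoprotein genes rose and were held, with a median log2 change of 3.11. Apoa2, an apolipoprotein of high-density particles, measured 0.333 and 0.0544 RPKM in wild type and 27.2 and 15.7 RPKM in Eed null (4.96 ± 0.31), and Apoc2, the activator of lipoprotein lipase, 0.907 and 0.183 RPKM in wild type and 35.0 and 24.3 RPKM in Eed null (4.92 ± 0.35). Soat2, which esterifies cholesterol for packing, rose from 0.288 and 0.297 to 14.2 and 13.0 RPKM (4.15 ± 0.21). The Eed null values of these 3 genes lay above all 8 other libraries. Mttp, which loads lipid onto Apob, rose by 1.98 and Apoe by 0.87, from a level that was already 222 and 247 RPKM in wild type. Of 15 genes of uptake and transport 10 rose. Cubilin (Cubn) and amnionless (Amn), which form the endocytic receptor of the visceral endoderm surface, rose together, Cubn from 1.00 and 1.16 to 29.1 and 40.6 RPKM (4.46 ± 0.24) and Amn from 0.853 and 0.633 to 27.2 and 26.4 RPKM (4.46 ± 0.20), and their partner megalin (Lrp2) rose by 3.13. Transthyretin (Ttr) rose from 19.9 and 12.7 to 133 and 118 RPKM (2.94 ± 0.29), the retinol carrier Rbp4 by 2.68 and the folate receptor Folr1 by 3.95. Slc16a1, a lactate transporter, fell by 1.04. S100g, a calcium-binding protein of visceral endoderm, measured 12.6 and 13.1 RPKM in wild type and 509 and 358 RPKM in Eed null (5.00 ± 0.42).

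Transcription factors of the visceral endoderm list were called in both directions, 5 of 13 higher and 5 lower. Hnf4a, the nuclear receptor that drives the apolipoprotein genes, rose from 0.998 and 1.63 to 5.00 and 5.49 RPKM (1.68 ± 0.20) and the coactivator Cited1 by 1.36. Foxa1 fell from 2.72 and 2.52 to 0.385 and 0.494 RPKM (-1.73 ± 0.18), Foxa3 from 6.03 and 6.90 to 2.86 and 2.40 RPKM (-1.15 ± 0.15) and Sox17 from 13.5 and 15.0 to 7.48 and 7.72 RPKM (-0.86 ± 0.13). In CCE wild-type embryoid bodies Foxa1 was as low as in Eed null (0.396 and 0.477 RPKM) and Sox17 lower (4.55 and 4.14 RPKM). Gata4 was not called, with 7.52 and 9.52 RPKM in wild type and 7.05 and 9.51 RPKM in Eed null, and the Gata6 call (log2 change -1.19) was lost without wild-type library 2.

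Markers of the anterior visceral endoderm, the signalling centre that places the head end of the embryo, fell in 4 of 8 tested members and rose in 1. Cerberus (Cer1), a secreted inhibitor of Nodal, Bmp and Wnt, measured 11.2 and 11.1 RPKM in wild type, 7.13 to 14.0 RPKM in K754M and K754R and 0.792 and 0.907 RPKM in Eed null (-3.11 ± 0.19). Lhx1, on chromosome 11, went from 7.50 and 7.0 to 0.816 and 1.43 RPKM (-2.28 ± 0.27) and the Wnt inhibitor Dkk1 from 18.9 and 21.9 to 6.46 and 5.80 RPKM (-1.65 ± 0.14). Lefty1 went the other way, from 3.33 and 1.7 to 34.9 and 32.5 RPKM (3.56 ± 0.24). Hhex and Otx2 were not called. Of 12 basement membrane genes 9 rose, 6 of them held, and none fell. The laminin chains Lama1 (4.47 and 4.50 to 34.2 and 48.5 RPKM, 3.05 ± 0.20), Lamc1 (1.78 ± 0.21) and Lamb1 (1.18 ± 0.12) and the type IV collagens Col4a2 (1.87 ± 0.14) and Col4a1 (1.17 ± 0.17) were higher, the collagens on chromosome 8 against that chromosome's median. Of 13 definitive endoderm and gut genes 4 were called higher and 3 lower. The chemokine receptor Cxcr4, which marks migrating definitive endoderm and mesoderm, fell from 21.3 and 20.1 to 3.64 and 4.05 RPKM (-2.29 ± 0.11), and Foxa2 from 9.72 and 9.11 to 5.23 and 6.29 RPKM (-0.67 ± 0.13).

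Primitive streak and nascent mesoderm genes were lower in Eed null. Of 19 tested members 12 were called lower, 8 of them held, and 5 higher, with a median log2 change of -1.08; without wild-type library 2 or Eed null library 2 the higher count was 2. Of the 12, 7 were also called lower against K754M and K754R, and both Eed null libraries lay below all 8 others for 6 of the 19. Mixl1, a homeobox gene of the streak, measured 8.02 and 7.05 RPKM in wild type and 0.764 and 1.30 RPKM in Eed null (-2.41 ± 0.19, adjusted p = 1.76e-04). Eomes, the T-box factor of the anterior streak, fell from 20.4 and 17.9 to 4.06 and 6.99 RPKM (-1.75 ± 0.23), and Wnt3 on chromosome 11, the ligand that starts the streak, from 11.5 and 14.7 to 2.56 and 3.76 RPKM (-1.90 ± 0.21). Evx1 fell by 1.61 and the Wnt target Sp5 by 1.40; neither was called against K754R (adjusted p 0.25 and 0.061 by limma), and Sp5 in CCE (1.86 and 2.56 RPKM) overlapped Eed null (2.18 and 2.84 RPKM). Brachyury (T) was less affected, 57.5 and 69.4 against 31.8 and 39.8 RPKM (-0.82 ± 0.16), a call lost without wild-type library 2, and Fgf8 was not called. The members called higher were Fgf4, Cdx1, Cdx2, Nkx1-2 and Wnt3a, of which Cdx1 (from 0.0363 and 0.0356 to 1.53 and 3.46 RPKM) and Fgf4 held. Cdx2 and Nkx1-2 were called against neither K754M nor K754R. Of the 19 tested members 2 passed the filter only through the Eed null libraries. Cdx1 was among them and could be called in that direction alone. Mesp1, the earliest marker of cardiac mesoderm, had the largest fall of the list at -4.64 ± 0.31. K754R embryoid bodies also held less Mesp1 (5.85 and 7.09 RPKM) and T (11.3 and 9.71 RPKM) than wild type.

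Cardiac and lateral mesoderm genes fell as well, 14 of 27 tested members, 12 of them held, against 4 that rose. Of the 14, 10 were also called lower against K754M and K754R, and none of the 4 was called higher against both. Hand1 on chromosome 11, a factor of extraembryonic and heart mesoderm, measured 13.6 and 10.1 RPKM in wild type and 1.12 and 1.93 RPKM in Eed null (-2.62 ± 0.23). Tbx20, a T-box factor of the heart, fell from 13.8 and 16.4 to 2.09 and 2.53 RPKM (-2.48 ± 0.15), and the apelin receptor Aplnr, which guides heart progenitors, from 21.3 and 18.2 to 0.835 and 1.81 RPKM (-3.53 ± 0.28). The K754M, K754R and CCE libraries sat above wild type in Tbx20, at 21.7 to 42.1 RPKM, and the Eed null libraries were the lowest. Bmp5 fell by 2.61, Isl1 by 0.83, and Foxf1a and Hand2, both on chromosome 8, by 2.54 and 1.80. Of the 14 that fell, 9 lie outside chromosomes 8 and 11. The atrial myosin light chain Myl7, on chromosome 11, fell from 21.1 and 27 to 9.74 and 5.84 RPKM. In Myl7 the wild-type libraries stood apart from all other groups, with 9.93 and 11 RPKM in K754M, 4.83 and 5.51 RPKM in K754R and 6.49 and 8.19 RPKM in CCE, and Eed null was called against neither K754M nor K754R (adjusted p 0.22 and 0.14 by limma). Actc1 (cardiac actin) was called lower at 0.171 and 0.0356 RPKM in Eed null, a call lost without wild-type library 1 or either Eed null library. Troponin T (Tnnt2) measured 0.0582 and 0.0571 RPKM in wild type and 0.459 and 0.131 RPKM in Eed null and was not called.

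Of 32 tested genes of blood and endothelium 7 were called lower and 6 higher; the lower count was 4 without Eed null library 1 or Eed null library 2, 9 without wild-type library 2, and 12 after median centring or quantile normalization, with 6 higher in both. Kdr (Flk1), the Vegf receptor of blood and vessel progenitors, fell from 20.5 and 22.5 to 2.42 and 3.31 RPKM (-2.72 ± 0.21), and Tal1, the master factor of blood formation, from 3.47 and 1.64 to 0.240 and 0.314 RPKM (-1.91 ± 0.31). The erythropoietin receptor Epor fell by 1.36. Embryonic globin Hbb-bh1 measured 17.5 and 1.63 RPKM in the wild-type libraries, which themselves differed widely, and 0 and 0.200 RPKM in Eed null, a call lost without Eed null library 1 or 2. Members that rose were Gata2 (0.759 and 0.782 to 5.15 and 7.98 RPKM, 2.45 ± 0.23), Esam, Pecam1, Sox7, Cd34 and Cdh5. The Cdh5 call was lost without wild-type library 1, wild-type library 2 or Eed null library 2, and K754R (1.95 and 2.39 RPKM) lay above Eed null (0.711 and 1.29 RPKM). Pecam1, also a stem cell surface gene, reached 5.51 and 5.48 RPKM, and its mean was 72.2 RPKM in wild-type stem cells. The K754M, K754R and CCE embryoid bodies, at 3.40 to 5.48 RPKM, also lay above wild type (1.80 and 0.927 RPKM). For Pecam1 Eed null was called against neither K754M nor K754R (adjusted p 0.11 and 0.18 by limma), and the same held for Sox7 and Cdh5 in the direction of the rise. Paraxial mesoderm genes had 4 of 14 tested members lower and 3 higher; the lower count was 2 without wild-type library 1 or Eed null library 1 and 6 after median centring. Cyp26a1, which breaks down retinoic acid, fell by 1.47, and Tcf15 (paraxis) rose from 1.20 and 0.669 to 9.43 and 11.5 RPKM (2.95 ± 0.31).

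Signalling genes split within each pathway. Nodal, the Tgf-beta family ligand that patterns the epiblast and induces mesendoderm, rose from 9.23 and 6.00 to 23.4 and 29.9 RPKM (1.76 ± 0.28). In K754M Nodal measured 19.4 and 15.0 RPKM, and Eed null was not called against K754M (adjusted p 0.15 by limma). Of 23 tested genes of the Nodal pathway 7 were higher and 7 lower against wild type. The feedback inhibitors Lefty1 (above) and Lefty2 rose, Lefty2 from 7.29 and 4.0 to 96.7 and 98.9 RPKM (4.05 ± 0.25), as did the ligand partner Gdf3 and the convertase Pcsk6 (3.18). Cfc1 (Cryptic), a coreceptor, fell from 51.5 and 81.7 to 6.86 and 5.16 RPKM (-3.34 ± 0.23) and Foxh1, the DNA-binding partner of Smad2, from 104 and 80.1 to 22.1 and 30.3 RPKM (-1.80 ± 0.18). Tdgf1 (Cripto) was not called, nor were Smad2, Smad3, Smad4 and the 3 activin receptors tested. The target genes Mixl1, Eomes and Gsc were called lower, the Gsc call being lost without wild-type library 1 or Eed null library 2. Against wild type, the ligand and its Lefty inhibitors were higher in the same libraries in which Mixl1 and Eomes were lower.

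Of 29 Bmp pathway genes 13 fell, 10 of them held, and 6 rose. Smad1, a transducer of Bmp signals on chromosome 8, went from 20.3 and 20.2 to 4.88 and 5.95 RPKM (-1.82 ± 0.14), and the target Msx2 from 18.9 and 21.8 to 4.50 and 5.24 RPKM (-1.96 ± 0.14). The inhibitors Smad6, Bmper, Nog and Chrd fell by 1.53, 1.35, 1.11 and 0.98. Bmp4 was not called, Bmp5, Bmp7 and Bmp2 fell, and Bmp8a and Bmp8b, ligands with a role in germ cell induction, rose by 1.68 and 1.72. Bmp8a passed the filter only through the Eed null libraries and could be called in that direction alone. Id4 rose by 2.37 while Id2 and Id3 were not called. Of 34 Wnt pathway genes 9 rose and 9 fell, and 2 of those that rose passed the filter only through the Eed null libraries. Ligands ran in both directions, Wnt7b from 0.201 and 0.198 to 5.52 and 6.50 RPKM (3.21 ± 0.21) and Wnt6 upward, Wnt3 and Wnt2 downward, and Wnt5a without a call. Of 10 Wnt targets 4 fell and none rose: Apcdd1 (-1.64 ± 0.15), Nkd1 on chromosome 8 (-1.60 ± 0.17), Lgr5 (-1.43 ± 0.25) and Sp5, while Axin2 and Lef1 were not called.

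Of 7 tested Fgf ligands 4 were called lower (2 without Eed null library 1), with Fgf3 at 27 and 12.8 RPKM in wild type and 2.86 and 2.71 RPKM in Eed null (-2.54 ± 0.29), and Fgf4 rose. Over 20 Fgf pathway genes 5 were higher and 6 lower, counts that became 3 higher without wild-type library 2 or Eed null library 2, and 10 lower without Eed null library 2. Of 16 retinoic acid genes 5 rose, led by the retinol dehydrogenase Rdh10 (1.86 ± 0.16) and the receptor Rxra (1.56 ± 0.19), and 2 fell, Cyp26a1 and Rarb, the latter call being lost whichever of the 4 libraries was left out. Of 13 Notch genes 4 fell and 1 rose, with 2 lower without wild-type library 2 or Eed null library 1. The Notch gene called higher passed the filter only through the Eed null libraries. The Notch target Hey2 fell from 4.32 and 4.36 to 0.992 and 1.17 RPKM (-1.62 ± 0.20).

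Hox genes, the textbook PRC2 targets that pattern the body axis, were called higher in 22 tested members and lower in 2 of the B cluster. Cluster A had 5 of 7 tested members higher, B 3 of 8, C 8 of 8 and D 6 of 7. Of the tested members 4, 2, 4 and 4 passed the filter only through the Eed null libraries, so their calls were bound to be in that direction. Those also called higher against both K754M and K754R numbered 5 in cluster A, 3 in B, 4 in C and 6 in D. After median centring 7 members of cluster C were called higher. The 2 called lower were Hoxb1 and Hoxb2, on chromosome 11, and both calls were lost without Eed null library 1, the Hoxb2 call also without wild-type library 1 or Eed null library 2. Both Eed null libraries lay above all 8 others for 5 members of cluster A, 2 of B, 6 of C and 3 of D. Levels stayed low, in Eed null from 0.0607 RPKM (Hoxb2) to 4.95 RPKM (Hoxd8). Hoxd13, the last gene of its cluster, measured 0.0895 and 0.0753 RPKM in wild type, 0.0126 to 0.0701 RPKM in K754M and K754R and 3.13 and 4.50 RPKM in Eed null (2.87 ± 0.20). Hoxa10 went from 0.0319 and 0.0376 to 3.25 and 2.77 RPKM (2.71 ± 0.16) and Hoxd8 from 0.390 and 0.221 to 4.52 and 4.95 RPKM (2.71 ± 0.22). Hoxc12 and Hoxd11, listed at 0 in both wild-type libraries, reached 0.778 and 0.974 RPKM (Hoxc12) and 0.369 and 0.385 RPKM (Hoxd11). Wild-type CCE embryoid bodies overlapped Eed null in Hoxd8 (4.89 and 4.01 RPKM) and Hoxd9 (5.23 and 3.10 RPKM), came near it in Hoxa9 (2.11 and 0.712 RPKM), and held the highest levels of Hoxd1 (6.86 and 8.33 RPKM).

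**Figure D4:**
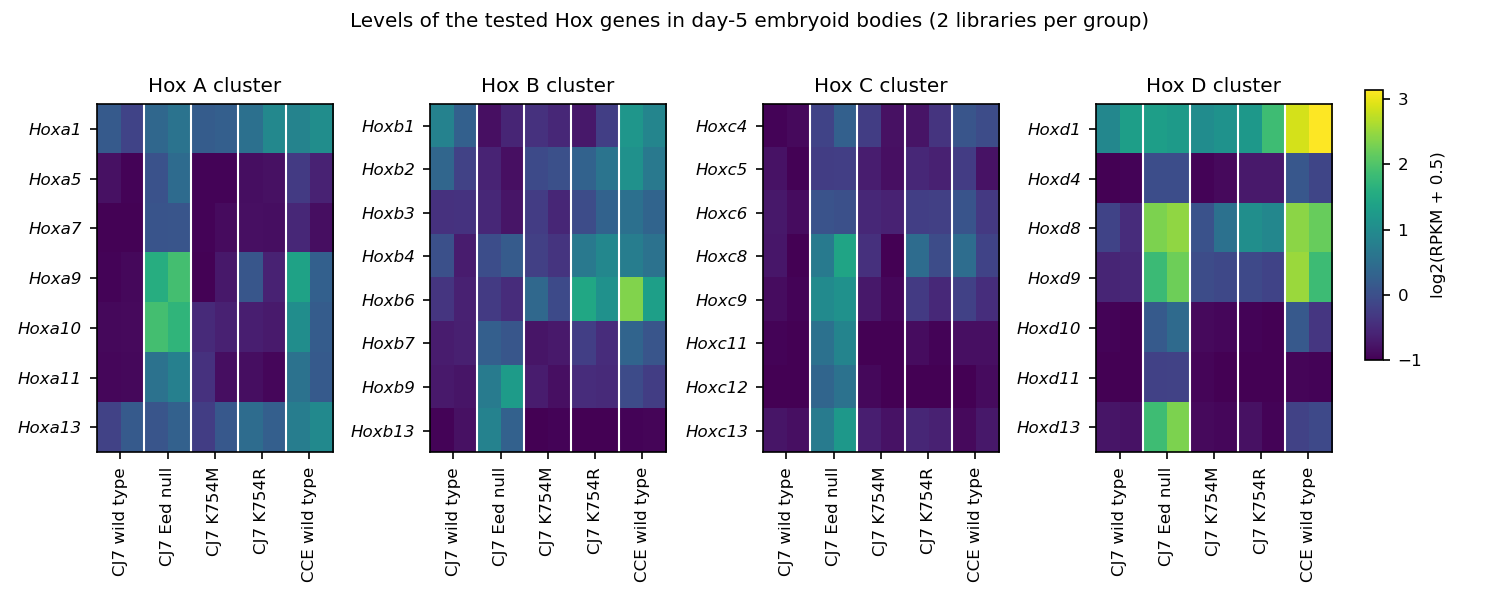
Levels, as log2(RPKM + 0.5), of the 30 tested Hox genes (rows, ordered by number in each cluster) in the 10 embryoid body libraries (columns, 2 per group). The Eed null columns are brighter than the wild-type columns for most of clusters A, C and D, and the CCE wild-type columns are bright for Hoxd1, Hoxd8, Hoxd9 and Hoxb6.

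Further developmental regulators named by size of change are given as levels, since Olig2, Olig1, Irx4 and Nkx2-3 lay under 0.25 RPKM in all 6 other CJ7 embryoid body libraries, were tested only through Eed null and could be called in that direction alone. Of 9 Pax genes 8 were below the filter and 1 was called higher, of 14 Nkx genes 6 were below it and 6 called higher, and of 6 Dlx genes 4 were below it and 2 called higher, while of 8 tested Tbx genes 1 was higher and 4 lower. Olig2, a helix-loop-helix factor of motor neuron and oligodendrocyte progenitors, measured 0.0130 and 0 RPKM in wild type and 5.39 and 11 RPKM in Eed null (4.02 ± 0.29), and its neighbour Olig1 0.0877 and 0.0143 RPKM in wild type and 3.27 and 7.82 RPKM in Eed null (3.35 ± 0.34). The homeobox genes Irx4 and Nkx2-3 measured 0.190 and 0.245 RPKM (Irx4) and 0.0150 and 0.0148 RPKM (Nkx2-3) in wild type and 3.11 and 4.10 RPKM (Irx4, 2.51 ± 0.19) and 1.68 and 1.33 RPKM (Nkx2-3, 1.96 ± 0.16) in Eed null. The T-box gene Tbx15 rose by 2.02 ± 0.17 but was not called against K754R (adjusted p 0.096 by limma). Of 54 listed neuroectoderm genes 29 were tested, 12 were higher and 4 lower. Of the tested ones 10 passed the filter only through Eed null libraries. All 10 are among the 12 and could be called in that direction alone, so the balance of directions rests on them. Those that fell were Cdh2 (N-cadherin, 11.5 and 14.2 to 2.27 and 3.33 RPKM, -2.02 ± 0.19), Fabp7, Sox11 and, on chromosome 8, Irx5. Fabp7 was as low in K754R (0.198 and 0.333 RPKM) as in Eed null (0.338 and 0.306 RPKM) and was not called against K754R (adjusted p 0.76 by limma). Irx5 was not called against K754M (adjusted p 0.15 by limma). Neurog1 and Neurog3, proneural factors listed at 0 in wild type, reached 0.437 and 0.414 RPKM (Neurog1) and 0.374 and 0.875 RPKM (Neurog3). Pax6 was called at 0.253 and 0.293 RPKM in Eed null, a call lost without wild-type library 2, and Sox3, Otx2 and Nes were not called.

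The promoters of 4 genes are shown because PRC2 targets are known for CpG-rich starts. Hoxd13 and Olig2 are shown as regulators that rose from near 0, Afp (log2 change 5.50 ± 0.34) as a visceral endoderm product that rose, and Mesp1 as a mesoderm factor that fell; they were chosen after their values were seen. Each sequence runs 5′ to 3′ on the gene's strand from 250 bases before to 50 bases after the RefSeq start in build GRCm38.p6, which is not the build named for the authors' reads, and every CpG is in capitals.
Hoxd13: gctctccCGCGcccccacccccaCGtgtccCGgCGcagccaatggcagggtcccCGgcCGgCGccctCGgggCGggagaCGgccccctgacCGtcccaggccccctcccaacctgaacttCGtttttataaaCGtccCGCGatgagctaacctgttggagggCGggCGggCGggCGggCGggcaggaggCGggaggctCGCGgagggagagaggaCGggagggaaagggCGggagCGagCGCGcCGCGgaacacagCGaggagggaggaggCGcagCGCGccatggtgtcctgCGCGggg
Olig2: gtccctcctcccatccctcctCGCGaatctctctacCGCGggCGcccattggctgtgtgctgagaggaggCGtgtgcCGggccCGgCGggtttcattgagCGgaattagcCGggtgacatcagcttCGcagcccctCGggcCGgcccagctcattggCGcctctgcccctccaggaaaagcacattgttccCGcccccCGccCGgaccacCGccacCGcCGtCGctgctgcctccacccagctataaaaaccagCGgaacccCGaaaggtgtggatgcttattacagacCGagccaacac
Afp: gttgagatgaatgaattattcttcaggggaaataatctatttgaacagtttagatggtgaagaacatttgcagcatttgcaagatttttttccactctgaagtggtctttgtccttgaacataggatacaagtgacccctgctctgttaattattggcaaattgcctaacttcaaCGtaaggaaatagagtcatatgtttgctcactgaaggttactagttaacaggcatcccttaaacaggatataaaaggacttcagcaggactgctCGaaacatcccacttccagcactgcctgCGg
Mesp1: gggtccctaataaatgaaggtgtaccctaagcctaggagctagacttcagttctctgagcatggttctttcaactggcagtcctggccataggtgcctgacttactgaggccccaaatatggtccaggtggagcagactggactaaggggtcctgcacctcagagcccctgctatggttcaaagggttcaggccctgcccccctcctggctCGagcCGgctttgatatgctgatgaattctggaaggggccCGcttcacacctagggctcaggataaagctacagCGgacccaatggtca
The Hoxd13 window lies at chr2:74667975-74668274, plus strand, and holds 37 CpG, and 5.58% of 32851 promoter windows of the same length hold at least as many. The Olig2 window (chr16:91225300-91225599, plus strand) holds 25 (18.4% of windows), the Afp window (chr5:90490464-90490763, plus strand) 3 (76.7%) and the Mesp1 window (chr7:79793541-79793840, minus strand) 4 (68.6%); the median window holds 7. The motif counted was CG, which reads the same on both strands. The count describes these 4 windows, and PRC2 binding or H3K27me3 at them was not analysed here.

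Imprinted genes, expressed from 1 parental allele, changed in both directions. Of 6 genes whose imprint depends on H3K27me3 in other tissues 4 rose and none fell: Sfmbt2 from 3.36 and 6.06 to 53.4 and 59.9 RPKM (3.50 ± 0.25), Phf17 (Jade1) from 7.74 and 8.04 to 71.4 and 68.8 RPKM (3.07 ± 0.11), Smoc1 (1.61 ± 0.20) and Gab1, whose call was lost without wild-type library 1, wild-type library 2 or Eed null library 2. Of 20 maternally expressed genes 11 rose and 5 fell; 3 were lower without wild-type library 1, wild-type library 2 or Eed null library 1. Cdkn1c (p57), a cyclin-dependent kinase inhibitor in the Kcnq1 domain, measured 2.37 and 1.99 RPKM in wild type, 4.81 to 11.3 RPKM in K754M and K754R and 155 and 135 RPKM in Eed null (5.76 ± 0.19, adjusted p = 1.53e-05). Its neighbours Slc22a18 and Phlda2 rose by 1.73 and 1.21, and H19 by 1.54. Igf2r and its neighbour Slc22a3 rose by 2.40 and 3.14.

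The noncoding RNAs of the Dlk1-Dio3 domain were lower. Rian fell from 224 and 211 to 31.6 and 33.9 RPKM (-2.71 ± 0.11), Meg3 from 12.5 and 17.1 to 1.78 and 3.05 RPKM (-2.41 ± 0.28) and Mirg from 33.9 and 27.5 to 9.15 and 8.13 RPKM (-1.77 ± 0.13). The paternally expressed Rtl1 of the same domain fell by 1.54, while Dlk1 rose from 0.167 and 0.180 to 1.24 and 1.68 RPKM and Dio3 from 0.317 and 0.120 to 2.59 and 2.63 RPKM. Dlk1 passed the filter only through the Eed null libraries and could be called in that direction alone. In stem cells Rian also lay lower in Eed null, with means of 58.8 RPKM in wild type and 13.8 RPKM in Eed null. Of 24 paternally expressed genes 7 rose and 8 fell, with Igf2 up by 1.81 and Peg3 and Nnat down by 0.97 and 1.53. Grb10, a growth inhibitor on chromosome 11, rose from 4.37 and 3.51 to 16.8 and 20.1 RPKM. In K754R Igf2 measured 65.6 and 59.5 RPKM and Grb10 37.4 and 44.0 RPKM, above wild type as well. The values do not separate the alleles.

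Of 7 cell cycle inhibitors 5 rose and 1 fell. Beside Cdkn1c these were Cdkn2b (1.69 ± 0.32), Cdkn2c (1.80 ± 0.29), Cdkn2a (1.05 ± 0.13) and Cdkn1a, whose call was lost without wild-type library 1, wild-type library 2 or Eed null library 2; Cdkn1b fell by 0.98. Of the 5, 2 (Cdkn1c and Cdkn2c) were also called higher against both K754M and K754R. Cdkn2a measured 7.21 and 8.15 RPKM in wild type, 16.2 and 16.6 RPKM in Eed null, 12.6 and 13.2 RPKM in K754M and 15.9 and 13.5 RPKM in K754R, so wild type stood below the other CJ7 groups, and Eed null was called against neither edited line (adjusted p 0.096 and 0.39 by limma). Cdkn2b was not called against K754M (adjusted p 0.1 by limma). Of 24 tested genes of proliferation 5 were higher and 2 lower, near the shares of all tested genes, 2 and 0 without wild-type library 2, and Mki67, Top2a, Pcna and Cdk1 were not called. Cyclin E1 (Ccne1) rose from 14.6 and 10.8 to 33.1 and 37.8 RPKM (1.46 ± 0.17). Of 14 p53 targets 7 were called higher, 3 without wild-type library 2 and 3 after median centring, and Pmaip1 (Noxa), which promotes apoptosis, had the largest change at 6.95 and 6.60 RPKM in wild type and 58.1 and 69.5 RPKM in Eed null (3.14 ± 0.14). Of 27 stress genes 10 rose and 4 fell, 4 and 0 of them held, and 5 rose without wild-type library 2; the small heat shock proteins Hspb1 and Hspb8 rose by 2.61 and 2.06.

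Markers of trophoblast, the outer lineage that forms the placenta, rose in 14 of 26 tested members and fell in 2; 2 of the 26 passed the filter only through the Eed null libraries. Krt7, an epithelial keratin of trophoblast, measured 1.40 and 1.03 RPKM in wild type and 20.2 and 16.2 RPKM in Eed null (3.44 ± 0.19), the X-linked homeobox gene Esx1 0.0160 and 0.157 RPKM in wild type and 3.49 and 4.35 RPKM in Eed null (2.92 ± 0.19) and the syncytiotrophoblast factor Gcm1 0.109 and 0.0614 RPKM in wild type and 2.93 and 2.60 RPKM in Eed null (2.48 ± 0.16). Synb, the syncytin of the inner syncytial layer, rose by 1.80. The 2 members that fell, Eomes and Hand1, are also mesoderm factors, and Tfap2c, Dnmt3l and Gata2 are shared with other lists. Among defining markers of early trophoblast, Cdx2 was called higher (8.43 and 5.63 to 13.1 and 16.1 RPKM), a call lost without wild-type library 2 or Eed null library 2. Cdx2 measured 14.7 and 11.3 RPKM in K754R and 54.4 and 33.9 RPKM in CCE. It was called against neither K754M nor K754R (adjusted p 0.065 and 0.63 by limma). Tpbpa was not called, at 0 and 0 RPKM in wild type and 0.841 and 0.251 RPKM in Eed null. Elf5 and Prl3d1 were below the filter, with Prl3d1 listed at 0 in wild type and at 0.0296 and 4.54 RPKM in Eed null. The summed level of the 32 trophoblast markers in the table was 1505 and 1339 RPKM in wild type, 2345 and 1763 RPKM in Eed null and 1489 to 2200 RPKM in the other 6 libraries. Serpins rose in 16 of 24 tested members, and 37 further rows were below the filter. Of the 16, 3 passed it only through the Eed null libraries, and 13 were also called higher against both K754M and K754R. The Serpinb9 group of the placenta was in front: Serpinb9e went from 0.614 and 0.195 to 10.5 and 15.3 RPKM (3.91 ± 0.29). Near-identical copies of that group share reads, so the single values are uncertain.

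Of 11 tested mesenchymal genes 6 fell, 5 of them held, and none rose. Of 12 epithelial genes 5 rose, 3 of them held, none fell and 7 were not called. Cdh11 on chromosome 8, a mesenchymal cadherin, measured 48.5 and 32.5 RPKM in wild type and 5.76 and 4.55 RPKM in Eed null (-2.84 ± 0.20), and the intermediate filament vimentin (Vim) 179.7 and 158 RPKM in wild type and 48.5 and 52.2 RPKM in Eed null (-1.73 ± 0.12). Zeb2, a repressor of epithelial genes, fell by 1.42, while Twist1 was not called. The splicing regulator Esrp2 and the transcription factor Grhl2, both epithelial, rose by 1.56 and 1.25. Feeder fibroblasts left in the culture would carry Col1a1, Col1a2, Col3a1, Postn and Dcn, and these lay at 0.0323 to 1.28 RPKM in the 4 libraries; of these Col3a1 and Dcn were called higher, calls lost without wild-type library 2. Of 20 tested feeder markers 4 were called higher and 3 lower, of which Mmp2 on chromosome 8 (-1.33 ± 0.18) held; the counts were 1 and 4 without wild-type library 2, and 1 was lower without wild-type library 1 or Eed null library 2. Their summed level over the 22 in the table was 80.5 and 55.5 RPKM in wild type, 39.5 and 40.0 RPKM in Eed null and 108 to 182 RPKM in the other 6 libraries.

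Of 79 tested cytoplasmic ribosomal protein genes 19 fell and 3 rose, with a median log2 change of -0.37, and the lower count was 7 without wild-type library 2, 38 without Eed null library 1 and 10 without Eed null library 2. Of the 19 that fell, 4 were also called lower against both K754M and K754R, and 11 lie outside chromosomes 8 and 11. After quantile normalization the median log2 change of the ribosomal protein genes was -0.10. The 3 that rose were Rpl10l, a copy of Rpl10 used in male germ cells (0.622 and 1.01 to 35.6 and 24.3 RPKM, 4.52 ± 0.34), Rpl39l (3.72 ± 0.27) and the row Rps4y2 (1.46 ± 0.11). Replication-dependent histones had 22 of 63 tested members lower, 11 of them held, and 7 higher; the lower count was 11 without wild-type library 1 and 14 without Eed null library 2. Transcripts of this kind, which lack poly(A) tails, are kept by rRNA depletion of total RNA. Hist1h4m went from 1.98 and 2.95 to 474 and 377 RPKM (7.18 ± 0.19), and the testis variants Hist1h2aa and Hist1h2ba rose by 3.76 and 3.16. Hist1h4i fell from 825 and 815 to 179 and 114 RPKM (-2.51 ± 0.22). Histone H4 genes are near-identical in coding sequence, so reads may be split among copies and the single values are uncertain. Small nucleolar RNA rows were lower in 22 of 73 tested, beside the lower share of small RNA rows in the Eed null libraries. Of the 22, 5 were also called lower against both K754M and K754R. Among solute carrier genes 94 rows were below the filter. Of those tested 21 passed it only through the Eed null libraries, and 18 of these were called higher. Against wild type, K754M and K754R alike, 67 solute carrier genes were called higher and 10 lower. Of 243 solute carrier genes 96 were higher and 17 lower, 71 and 28 after median centring; the lower count was 8 without wild-type library 2 and 11 without Eed null library 1, and 5 of the 17 held.

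Outside the lists, the largest rise among named genes was Aqp8, a water channel of gut and liver, from 0.505 and 0.555 to 67.4 and 40.8 RPKM (5.68 ± 0.25). Trap1a, a tumour rejection antigen gene, rose by 5.05, the muscle myosin chain Mylpf by 5.04 and the fatty acid binding protein Fabp3 from 6.66 and 7.49 to 297 and 207 RPKM (5.04 ± 0.29). The trefoil peptide Tff3, listed at 0 in both wild-type libraries, reached 16.7 and 11.1 RPKM. Morc1, which is needed in male germ cells, and Pramef12 rose by 4.19 and 4.21, and Triml2 and Triml1 on chromosome 8 by 4.84 and 4.45. Trap1a, Mylpf, Fabp3, Triml2 and Morc1 all measured more than 30 RPKM in stem cells of both genotypes, and at most 8.58 RPKM as group means in the K754M, K754R and CCE embryoid bodies. The largest falls were Fam123c (4.07 and 9.78 to 0.167 and 0.349 RPKM, -3.19 ± 0.39) and, on chromosome 8, Nrp1 (neuropilin, a Vegf and semaphorin coreceptor; 73.1 and 66.5 to 9.92 and 9.64 RPKM, -2.77 ± 0.11). The calponin gene Cnn1, Asb4 and the protocadherin gene Pcdh18 fell by 2.57, 2.55 and 2.45, and Pdlim3 on chromosome 8 by 2.73. Cnn1 measured 8.39 and 3.50 RPKM in wild type, 0.455 and 0.558 RPKM in Eed null and 1.15 and 0.833 RPKM in K754R. It was not called against K754R (adjusted p 0.32 by limma). Gt(ROSA)26Sor, the noncoding transcript of the Rosa26 locus, measured 4.35 and 3.84 RPKM in wild type and 0.324 and 0.340 RPKM in Eed null (-2.46 ± 0.17), and in stem cells 9.61 and 8.61 RPKM in wild type and 0.657 and 1.28 RPKM in Eed null. Among protein-coding genes Dppa5a gained most RPKM, and Npm1 (nucleophosmin, on chromosome 11) lost most, from 1784 and 1788 to 836 and 874 RPKM (-1.06 ± 0.17); K754R libraries held 845 and 756 RPKM, as low as Eed null.

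Set beside the stem cells from which they came, 3 of these groups of genes differed in their levels. The median level of the 28 naive pluripotency genes was 26.6 RPKM in wild-type and 26.1 RPKM in Eed null stem cells, and 1.93 and 13.2 RPKM in the embryoid bodies. For the 48 tested germline genes the medians were 5.67 and 14.7 RPKM in stem cells and 0.765 and 4.15 RPKM in embryoid bodies. The 11 lipoprotein genes stood at 0.988 and 2.00 RPKM in stem cells and at 1.53 and 22.8 RPKM in embryoid bodies. The naive medians of the genotypes lay close together in stem cells and apart in embryoid bodies, and the germline medians lay apart in both. Stem cell and embryoid body tables were normalized separately, so these medians are a description and were not tested. The 22 feeder markers summed to 359.9 and 526 RPKM in wild-type and 552 and 782 RPKM in Eed null stem cells, above all embryoid body libraries. Col1a2 measured 32.9 and 45.1 RPKM in wild-type and 67.3 and 102 RPKM in Eed null stem cells, Col3a1 24.1 and 26.6 RPKM and 41.8 and 61.1 RPKM, and Col1a1 24.4 and 31.9 RPKM and 30.6 and 48.7 RPKM, while Postn ran the other way with 30.7 and 55.8 RPKM and 5.09 and 5.76 RPKM. The part of feeder RNA in the stem cell levels given here was not tested.

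The calls against wild type named above were set beside those against the edited lines, which share the Eed null libraries. Of 239 named genes called against wild type besides Eed, 207 were called in the same direction against both K754M and K754R, 9 against K754M alone, 10 against K754R alone and 13 against neither. Of the 13, the calls of Cdkn2a, Myl7, Npm1, Pecam1 and Sox7 against wild type held. Nodal, Bmp7, Wnt6 and Isl1 were among those not called against K754M.

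**Figure D5:**
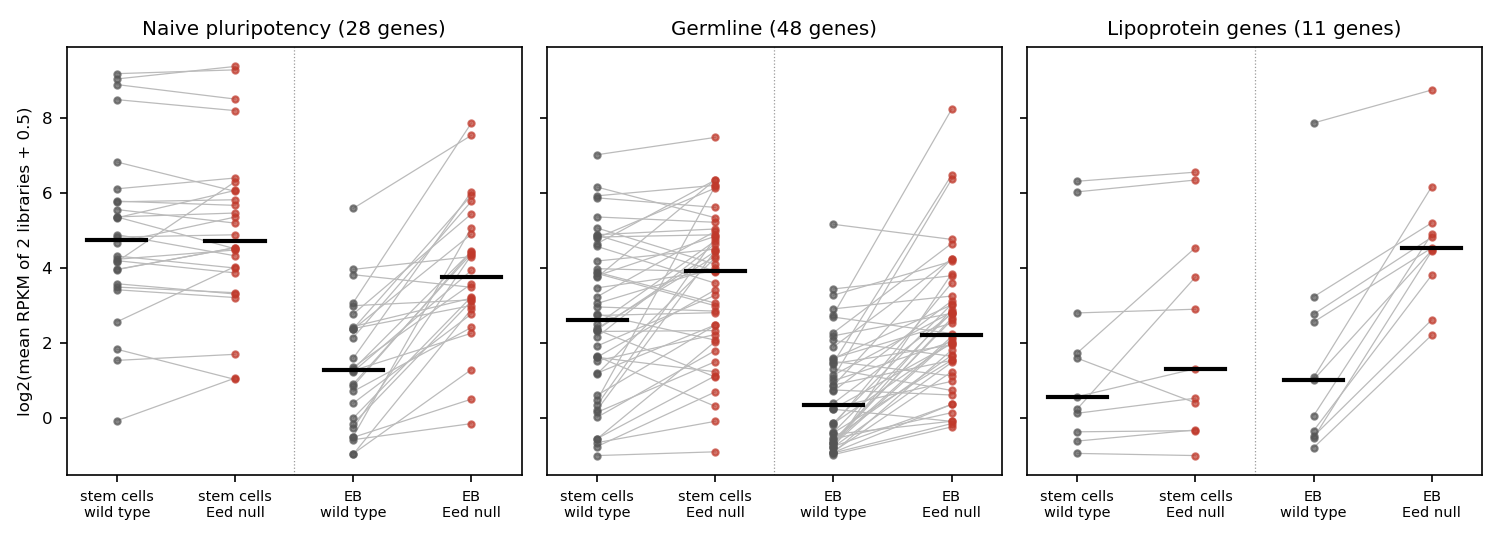
Level of each gene (log2 of the mean RPKM of 2 libraries plus 0.5, vertical axis) in wild-type and Eed null stem cells and embryoid bodies (EB), for naive pluripotency, germline and lipoprotein genes; grey lines join the genotypes of 1 gene and black bars are medians over genes. In wild-type embryoid bodies the naive median is 1.93 RPKM, against 13.2 RPKM in Eed null.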

How the data were processed

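Total RNA, depleted of ribosomal RNA, was sequenced from day 5 embryoid bodies. The authors deposited RPKM values per gene in a table of embryoid bodies and a table of stem cells; CASAVA 1.7, STAR and mm9 are named in the submitters' processing notes, and no source used here gives the counter, annotation or strand setting. The values were used as deposited, and 14 library columns of these tables were not used. Depth was estimated from the step that 1 read makes in low RPKM values, given exon lengths of the reference annotation (not the authors' build). Genes with at least 0.25 RPKM in at least 2 of the 8 CJ7 embryoid body libraries (wild type, Eed null, K754M and K754R) were tested in 1 fit on log2(RPKM + 0.5), computed here from the deposited RPKM, with limma 3.58.1 in R 4.3.3 (variance trend, 4 residual degrees of freedom, no covariate, Benjamini-Hochberg over all tested genes, called at an adjusted p below 0.05). Adjusted p-values and log2 changes come from that fit, and ± is its SE. On simulated data with 200 changed genes among 17579, the same code recovered 185, gave all 200 the right sign and made 13 false calls. The median absolute log2 change of those 200 genes was 1.87, and recovery of smaller changes was not tested. Whether these rates hold for the calls reported above was not tested. Tables were handled with Python 3.11.15 and pandas 2.3.3, and figures drawn with matplotlib 3.10.9.

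The comparison, its members and the gene lists were chosen with earlier results of these data known. Genes were named by a rule: within each list up to 4 held members in each direction by size of change. Outside the lists these were the largest changes with a group mean of at least 1 RPKM. Their calls had to be kept whichever library was left out with the filter applied anew. The largest RPKM differences among called genes were added. Shared names, pseudogenes, small RNAs, clones and Gm and Rik models were left out there. Uncalled members and genes named to account for a count were chosen after their values were seen. Alternatives covered the pseudocount, the filter, the libraries in the fit, scaling, the variance trend, the replicate number as a block, and leaving out each library in turn. CCE and stem cell levels entered no test. Promoter windows came from RefSeq. Small RNA rows are those named as snoRNA, U RNA, 7SK, Y RNA or 5S rRNA.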

Additional observations from a re-analysis of the deposited data

Results flagged for a closer look

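For 62 of the named genes called in embryoid bodies, both Eed null libraries lay on one side of both wild-type libraries in stem cells and on the other side in embryoid bodies. Given here are the 15 whose embryoid body call held, whose stem cell mean was at least 1 RPKM in a genotype and whose stem cell difference was at least 1 on the log2 scale, limits set after the data were seen. The stem cell table was normalized separately, so the difference between the stages was not tested. Feeder fibroblast markers were high in the same stem cell libraries and differed between the genotypes: Col1a2 measured 32.9 and 45.1 RPKM in wild type and 67.3 and 102 RPKM in Eed null, Col3a1 24.1 and 26.6 RPKM and 41.8 and 61.1 RPKM, and Postn 30.7 and 55.8 RPKM and 5.09 and 5.76 RPKM. Their part in the stem cell differences was not tested. Of the 15 genes 12 were lower in Eed null embryoid bodies, with levels that were higher in Eed null stem cells. The log2 differences in stem cells, Eed null minus wild type, were 2.58 for Pdlim3, 2.01 for Dkk1, 1.93 for Sox11, 1.83 for Msx2, 1.76 for Apcdd1, 1.65 for Tbx20, 1.49 for Hey2, 1.30 for Nrp1, 1.24 for Pcdh18, 1.17 for Sp5, 1.10 for Kdr and 1.08 for Myl7. For Msx2, a Bmp target, the stem cell levels were 0.0368 and 0.329 RPKM in wild type and 1.78 and 1.95 RPKM in Eed null, while in embryoid bodies they were 18.9 and 21.8 RPKM in wild type and 4.50 and 5.24 RPKM in Eed null. The other 3 genes were higher in Eed null embryoid bodies and lower in Eed null stem cells, with stem cell differences of -1.48 for Morc1, -1.31 for Pecam1 and -1.19 for Soat2. Morc1 measured 98.2 and 100.3 RPKM in wild-type stem cells and 35.8 and 34.6 RPKM in Eed null stem cells, against 0.808 and 1.08 RPKM and 28.4 and 23.4 RPKM in the embryoid bodies.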

How the results depend on the processing

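Over the alternatives tried, none of the 286 tested genes named above besides Eed changed direction with a call on both sides. Between 3939 and 7062 genes were called against wild type, and Eed changed by between -1.85 and -1.65 on the log2 scale. The count of genes lower in Eed null was the least stable: 1315 with the wild-type and Eed null libraries alone and 3442 after median centring. Leaving out 1 library gave 3921 to 4647 calls, 2394 to 2916 genes higher and 1296 to 1905 lower, and with the same genes tested, an alternative added after the data were seen, 3896 to 5347 calls, 2606 to 3624 higher and 1290 to 1893 lower. The low ends of the calls with the same genes tested and of the lower counts came without wild-type library 2, and the 2394 without Eed null library 2. With 1 library left in a group, that library is taken to vary like the others. Against K754M 3930 to 5175 genes and against K754R 4925 to 6490 were called with 1 library left out. Median centring left 274 of the 286 genes on their side of the threshold, and quantile normalization 279. Outside chromosomes 8 and 11 3412 genes (20.3%) were higher and 1553 (9.26%) lower. With the replicate number as a block 7062 genes were called, 4238 higher and 2824 lower; the deviations of same-numbered libraries correlated at 0.0116 between Eed null and wild type and at 0.111 to 0.229 in the other 5 pairs of the 4 CJ7 groups. As not every pair was above 0.1, and no label ties the numbers to a shared batch, they were not taken to pair the libraries. Genes under 0.25 RPKM in all but 1 library were not tested, and the pseudocount of 0.5 RPKM understates the change of low genes.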
